A study of Mus musculus with 9 samples.

Results

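Crystallins are the proteins that fill the fibre cells of the eye lens, and some of them are also made in the retina. Reads of 9 crystallin genes were examined in cells prepared as mouse Müller glia: the alpha crystallins Cryaa and Cryab, the acidic beta crystallins Cryba1, Cryba2 and Cryba4, the basic beta crystallins Crybb1, Crybb2 and Crybb3, and Crygs, the gamma S crystallin. They were taken by symbol from 16367 genes of the table of sorted cells, which listed all 9, and from 17035 genes of the table of cultured cells, which listed 8. Cryba2 is not listed for the cultures.

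The series holds 9 libraries in 3 groups of 3. All animals carried the wild-type genotype. In the ocular hypertension group (OHT), 1.2 µL of silicone oil lay in the anterior chamber of both eyes, while sham animals had a cut in the cornea and no oil. Each sorted library pooled 4 retinas, whose dissociated cells were pulled out with magnetic beads through GLAST, a glutamate transporter that astrocytes share with Müller glia. The age of these mice is not given in the sources used here. The third group was untreated primary cultures from retinas of C57BL/6J pups 8 to 10 days old, grown in serum and passaged, which makes them young, dividing cells in a dish and not a matched control of the sorted cells.

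Alpha crystallins belong to the small heat shock proteins. They hold unfolded proteins in solution, and Cryab is made in many tissues under stress, glia included. Beta and gamma crystallins share another fold, pack the lens to high density and are best known as structural proteins of its fibre cells, although retinal neurons and glia can make several of them after injury. Crybb1 is in addition a known transcript of young microglia, the resident macrophages of the nervous system. In lens cells, transcription factors of the Maf family bind the promoters of crystallin genes.

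Depth here is the sum of the reads of all genes listed for a library, not the number of reads sequenced. It was between 37.8 and 53.6 M reads in the sorted libraries and between 66.3 and 76.7 M reads in the cultures. M stands for 1000000. Levels in ppm are reads of a gene per 1000000 of these summed reads of its library, and the other values are the authors' normalised counts. The markers of the labelled cell type were present but not dominant in the sorted libraries. The 12 genes of the Müller glia list summed to between 3494 and 8416 ppm in sham and between 1889 and 4062 ppm in OHT. The 12 genes of the microglia and macrophage list summed to between 34848 and 53241 ppm in sham and between 47096 and 62867 ppm in OHT. In the cultures the Müller glia list was at 2815 to 3728 ppm and the microglia list at 105 to 164 ppm, while 7 genes of mural cells and fibroblasts summed to between 16146 and 19116 ppm. Most of the Müller glia sum in the cultures came from Vim, named after its values were seen, at 3319, 2652 and 2301 ppm. Of the 12 Müller glia genes, 10 were below all 6 sorted libraries in the cultures and 1 was above. Among all genes compared, 18.2% were below and 33.4% above in this way. Lists of cone, bipolar, amacrine, ganglion, pigment epithelium and endothelial cells each summed to at most 568 ppm in the sorted libraries.

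The promoters of 4 members are shown first, because the results separate Cryba4 and Crybb1 from Cryaa and Crybb3. Of the 9 genes, 8 had an entry among RefSeq's promoter sequences on the mouse build GRCm38.p6, and Cryab had none. The 250 bases before the annotated start are printed from 5′ to 3′ on the strand of the gene. Capitals mark TGCTGA, the core of the Maf recognition element, or its reverse complement TCAGCA, and TATAAA, the TATA box.

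Cryaa, chr17:31677681-31677930, plus strand: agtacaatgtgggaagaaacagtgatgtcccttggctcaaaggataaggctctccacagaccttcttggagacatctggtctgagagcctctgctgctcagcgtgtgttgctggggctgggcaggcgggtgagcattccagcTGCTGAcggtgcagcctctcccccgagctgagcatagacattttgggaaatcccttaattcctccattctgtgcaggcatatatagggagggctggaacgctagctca
Crybb3, chr5:113081585-113081834, minus strand: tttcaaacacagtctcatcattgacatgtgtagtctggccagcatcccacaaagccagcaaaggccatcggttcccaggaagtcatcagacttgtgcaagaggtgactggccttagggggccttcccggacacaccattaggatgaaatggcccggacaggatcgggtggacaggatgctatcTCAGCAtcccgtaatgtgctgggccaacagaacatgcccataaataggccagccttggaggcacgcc
Cryba4, chr5:112252519-112252768, minus strand: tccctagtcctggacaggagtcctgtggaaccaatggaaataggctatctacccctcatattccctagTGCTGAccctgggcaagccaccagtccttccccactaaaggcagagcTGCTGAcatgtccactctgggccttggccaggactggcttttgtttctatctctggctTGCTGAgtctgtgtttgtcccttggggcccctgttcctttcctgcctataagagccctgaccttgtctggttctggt
Crybb1, chr5:112255570-112255819, plus strand: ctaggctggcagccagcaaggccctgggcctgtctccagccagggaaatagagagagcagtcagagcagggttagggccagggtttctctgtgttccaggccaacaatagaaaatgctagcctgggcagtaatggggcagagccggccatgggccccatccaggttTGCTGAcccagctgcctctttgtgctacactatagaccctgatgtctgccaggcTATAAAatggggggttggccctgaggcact

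The Maf core TGCTGA stood on 1 of both strands in 7 of the 8 member promoters. It was found in 16.1% of 32841 promoter windows of the same length. Cryba4 had 3 copies, which began 182, 135 and 77 bases before its start. Crybb1 had 1 copy at 84 bases and Cryaa 1 at 108 bases, all on the strand of the gene, and Crybb3 had its copy on the other strand at 67 bases. Crybb2 was the member without one. TATAAA stood in Cryba1, Crybb1 and Crygs, against 12.4% of all windows. For Cryba1 the bases just after the window matched no transcript of the gene in GENCODE release M21. The other member windows passed this check. The letters GAGGAAG, 1 form of the site that the myeloid factor PU.1 binds, and GAANNTTC, a pair of heat shock units, were searched on both strands. They matched none of the 8 windows, against 10.6% and 6.70% of all windows. Shorter or other forms of these sites were not searched. A match of letters describes the sequence and shows no binding.

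Cryab was the crystallin with the most reads in most sorted libraries and in all cultures. Its normalised counts were 4813, 8950.1 and 9282 in sham and 17486, 2879 and 6890.2 in OHT. OHT replicate 1 was the highest of the 6 and OHT replicate 2 the lowest, so the sham values lay inside the OHT range. OHT minus sham on the log2 scale was -0.068 with an SE of 0.56 and an adjusted p of 0.966 in limma, with a 95% interval of -1.30 to 1.17. With 3 libraries a group, this interval still holds a difference of more than 1 log2 unit in either direction. In bulk RNA, fewer cells of a type and less RNA per cell cannot be told apart, here and in every comparison that follows.

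In the cultures Cryab was at 1455, 1015 and 1184 ppm. The sorted libraries held 123, 228 and 218 ppm in sham and 266, 65.3 and 182 ppm in OHT. The mean of the cultures was 6.75 times that of the 6 sorted libraries, and the lowest culture lay 3.82-fold above the highest sorted library. Among 14004 genes kept in the sorted table and listed in both tables, 33.4% were above all 6 sorted libraries in all 3 cultures. Cryab was the 1 of 8 members that did so, and it kept this place with 2 other ways of scaling the libraries. The tables were normalised separately and the cultures come from pups, so no test was made between them. Culture and age cannot be told apart.

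Exons of Cryab share 252 bases with those of Hspb2 on the opposite strand in GENCODE release M21, which is 30.2% of the exon bases of Hspb2. The sources used here do not say that counting used the strand, so some reads of the 2 genes may have been exchanged. Hspb2, another small heat shock protein gene, was at 5.73, 5.08 and 5.52 ppm in the cultures and between 0.0630 and 1.25 ppm in the sorted libraries.

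**Figure D1:**
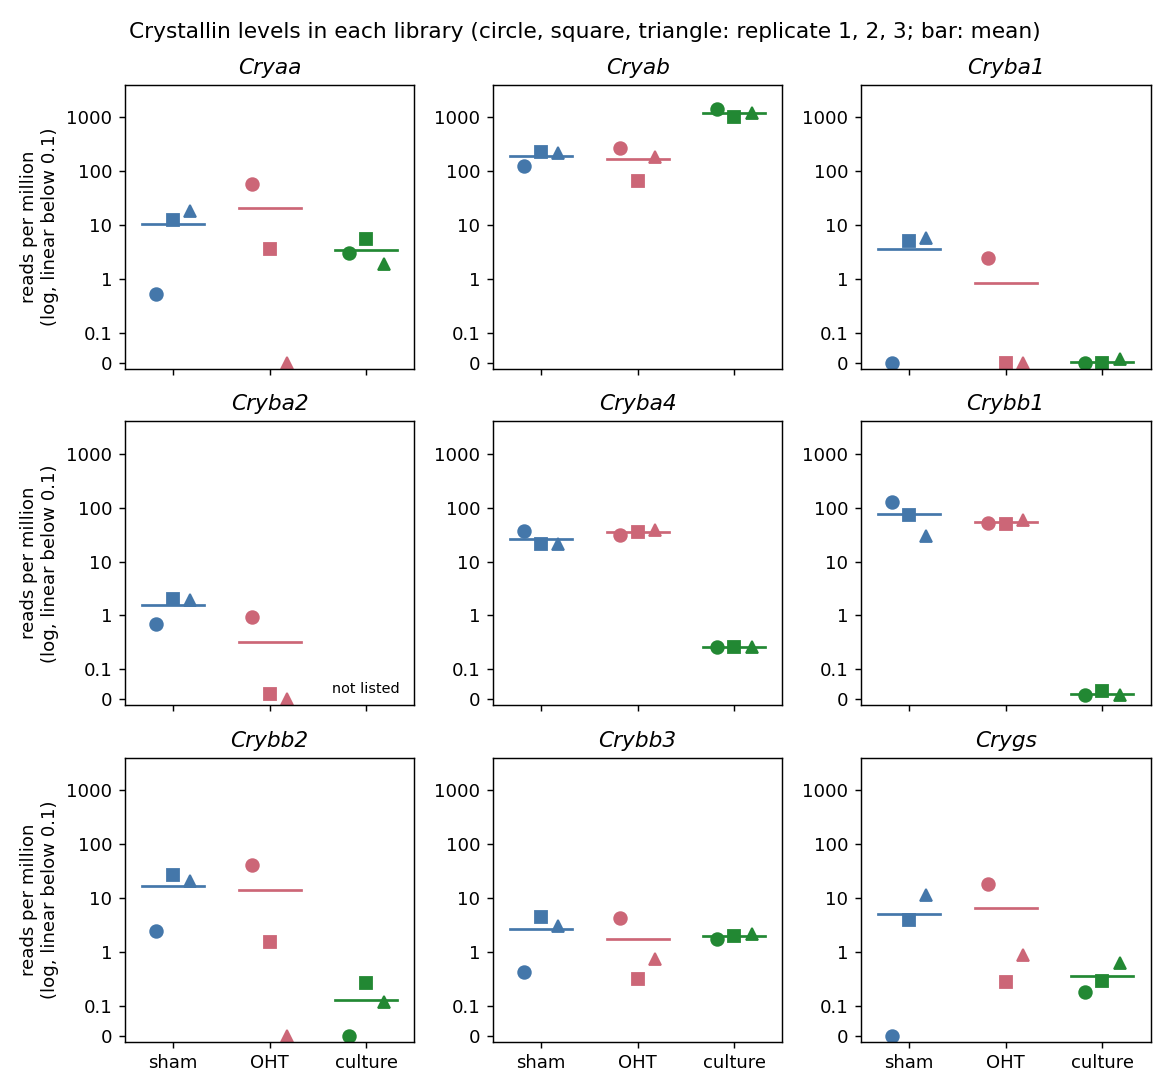
Level of each crystallin gene in ppm (y axis) by group (x axis), on a log axis that is linear below 0.1, for the 3 sham, 3 OHT and 3 culture libraries; bars are group means. Cryab is highest in the cultures (1015 to 1455 ppm), Cryba4 and Crybb1 lie between 20.7 and 128 ppm in all sorted libraries and below 0.3 ppm in the cultures, and the other genes spread widely between replicates.

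Crybb1 and Cryba4 had another pattern: moderate levels in all 6 sorted libraries and almost no reads in culture. Crybb1, a basic beta crystallin, had normalised counts of 4987, 2932 and 1283 in sham and 3394, 2193 and 2183 in OHT. The OHT values lay inside the sham range, and OHT minus sham on the log2 scale was -0.069 with an SE of 0.48 and an adjusted p of 0.958 in limma (95% interval -1.13 to 0.99). In ppm its levels were 128, 74.5 and 30.2 in sham and 51.6, 49.7 and 57.8 in OHT.

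Cryba4, an acidic beta crystallin, had normalised counts of 1441, 830.2 and 882 in sham and 2041, 1550.05 and 1438 in OHT. In normalised counts the groups touched at a single point, since the lowest OHT library lay just under the highest sham library. In ppm they overlapped more: sham replicate 1 was at 36.9, and the OHT libraries were at 31.0, 35.1 and 38.1. The difference on the log2 scale was 0.70 with an SE of 0.41 and an adjusted p of 0.509 in limma (95% interval -0.20 to 1.60). It was positive in all 16 alternative analyses that could be run, between 0.55 and 0.95, and passed the threshold in none of them.

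The 3 cultures together held 4 reads of Crybb1 among 218.7 M reads, with 1, 2 and 1 read each. The 6 sorted libraries held 17191 reads of it among 273.3 M reads. The pooled ratio was 3439, with an exact 95% interval of 1343 to 12625 that covers counting error only. Cryba4 had 57 reads in the cultures, at 0.256, 0.264 and 0.261 ppm, against 20.7 to 38.1 ppm in the sorted libraries, a pooled ratio of 118 (exact 95% interval 90.6 to 155, counting error only). Crybb1 and Cryba4 were the 2 of 8 members below all sorted libraries in all cultures, where 18.2% of all genes were.

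The genes with the patterns most like Crybb1 over the 6 sorted libraries were Kcnk6, a potassium channel gene, P2ry12, a purine receptor by which resident microglia are recognised, and Ets1, a transcription factor gene. Likeness was measured as the root mean square difference of log2 values after each gene was set to its own mean, and it was 0.12, 0.15 and 0.17 log2 units. P2ry12 had normalised counts of 100870, 71458 and 29345 in sham and 94729.7, 51842 and 45137 in OHT. Both genes were thus lowest in sham replicate 3 and highest in sham replicate 1. In the cultures P2ry12 was at 0.151, 0.0397 and 0.0261 ppm and Kcnk6 at 0.347, 0.132 and 0.0261 ppm. Ets1 went the other way, with 79.1, 91.1 and 116 ppm in the cultures.

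The genes most like Cryba4 were Nasp, a histone chaperone gene, Snx30, a sorting nexin gene, and Arhgdib, a gene known from blood cells, at 0.08, 0.10 and 0.10 log2 units. Genes with little spread lie close to many others on this measure, and 22.2% of the kept genes had a smaller SD over the 6 libraries than Cryba4 (35.9% for Crybb1). Per 1000 reads of the microglia list, Cryba4 had 0.693, 0.589 and 0.595 reads in sham and 0.493, 0.657 and 0.809 in OHT, a 1.64-fold range. Crybb1 had 0.820 to 2.40 on that scale, a 2.92-fold range. For Cryab the range was 5.20-fold, from 1.22 to 6.35. Before this division, in ppm, the ranges were 1.84-fold for Cryba4, 4.23-fold for Crybb1 and 4.07-fold for Cryab. No other marker list was used as a divisor, so the change in range has nothing to be compared with. Of the 12 genes of the microglia list, 6 had all OHT libraries above sham in normalised counts, as had 9.26% of all genes. Limma called 0 of the 12. The part of microglial RNA in the levels of Crybb1 and Cryba4 was not tested.

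Cryba4 and Crybb1 are next to each other among the coding genes of chromosome 5 in RefSeq's gene table for GRCm38.p6, on opposite strands. Their spans in that table overlap by 9063 bases, although the starts used for the printed promoters lie apart, and the spans in GENCODE release M21 do not overlap. Which annotation the authors counted on is not known. Crybb2 and Crybb3 are neighbours on the same chromosome too. The patterns of Cryba4 and Crybb1 differed by 0.58 log2 units, the smallest distance of the 36 pairs of members, and those of Crybb2 and Crybb3 by 2.82.

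The other 6 genes, known from the lens, spread widely between replicates. Their SD over the 6 sorted libraries was 1.83 (Crybb3) to 4.25 (Cryaa) log2 units, larger than that of 83.7% to 99.9% of the kept genes. Cryaa, the alpha crystallin that is largely limited to the lens, had normalised counts of 20.7, 493 and 768 in sham and 3822, 159.7 and 0 in OHT. A single group thus held both the highest value of all sorted libraries and a library without a read. The log2 difference was -1.25 with an SE of 2.40 and an adjusted p of 0.837 in limma, whereas edgeR, which compares group means of counts, gave 1.49 (adjusted p = 0.781). The arithmetic mean was higher in OHT (1327 against 427) and the mean of the log values was lower. An antisense gene shares 273 exon bases with Cryaa in GENCODE release M21, so some reads could belong to it.

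Crybb2, a major beta crystallin of the adult lens, had 95.04, 1042 and 885 in sham and 2624, 68.3 and 0 in OHT. It showed the same order of libraries at the extremes as Cryaa, and the same change of sign between the value of -2.98 with an SE of 2.18 and an adjusted p of 0.578 in limma and that of 0.27 with an adjusted p of 0.967 in edgeR. Crygs, a crystallin of the outer lens, had 0, 153 and 487 in sham and 1186, 12.3 and 32.9 in OHT. Its log2 difference was 0.94 with an SE of 2.22 and an adjusted p of 0.869 in limma.

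Crybb3, a basic beta crystallin, was found in all sorted libraries, at 16.5, 174 and 128 in sham and 276, 14.0 and 28.0 in OHT. Its difference was -0.57 with an SE of 1.36 and an adjusted p of 0.870 in limma. Cryba1, whose transcript gives beta A3 and beta A1 crystallin, had 0, 200.2 and 252 in sham and 166, 0 and 0 in OHT. Its difference was -2.75 with an SE of 2.51 and an adjusted p of 0.653 in limma. Cryba2, an acidic beta crystallin, had 26.9, 81.2 and 82.3 in sham and 62.2, 0.823 and 0 in OHT. Its difference was -3.56 with an SE of 1.72 and an adjusted p of 0.447 in limma. The intervals of these 3 differences reached from -3.56 to 2.42, from -8.24 to 2.74 and from -7.34 to 0.21, so differences of several log2 units lie within the replicate error. A count of 0 allows up to 3 reads, that is 0.0793 ppm in sham replicate 1, 0.0560 ppm in OHT replicate 2 and 0.0636 ppm in OHT replicate 3.

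The highest libraries were the same for most members. Sham replicate 2, sham replicate 3 and OHT replicate 1 were the 3 highest of the 6 sorted libraries for 7 of the 9 members, namely Cryaa, Cryab, Cryba1, Cryba2, Crybb2, Crybb3 and Crygs. The same held in ppm. For Cryaa the lowest of these 3 libraries was at 493 and the highest of the rest at 159.7. For Cryba1 these values were 166 and 0, and for Cryab 8950.1 and 6890.2. Among all 14403 kept genes 4.83% had the same 3 libraries highest. This order was noticed in the values, and it is given as a description.

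Of the gamma crystallins of the lens core, Crygb, Crygc and Crygd had the same 3 libraries highest. Crygb, the gamma crystallin with the most reads, was at 78.5, 390.2 and 277 in sham and 734, 10.7 and 0 in OHT. Crygc and Crygd were at 0 in OHT replicates 2 and 3. Cryga had reads in OHT replicate 1 alone (62.2), and Crygf in sham replicate 3 (4.78) and OHT replicate 1 (18.0). None of the gamma crystallins Cryga, Crygb, Crygc, Crygd and Crygf was listed for the cultures, and Cryge was listed in neither table. Crybg3, a larger protein of the beta-gamma family that is not confined to the lens, lay between 258 and 629 in all sorted libraries and did not follow this order.

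Markers of lens fibre cells other than crystallins were scarce. The 12 genes of that list summed to 4.76, 6.99 and 12.3 ppm in sham, to 9.83, 3.53 and 3.08 ppm in OHT and to between 6.03 and 9.77 ppm in the cultures. Mip, the water channel that defines fibre cells, is not listed in either table. Grifin, a galectin relative of the lens, was at 0, 74.7 and 125 in sham and 497, 0 and 37.7 in OHT, with the same 3 libraries highest. Bfsp2, a filament protein of fibre cells, was at 123, 48.0 and 142 in sham and 64.9, 28.8 and 12.02 in OHT. Of the 11 listed genes 4 had sham replicates 2 and 3 and OHT replicate 1 as their highest libraries, and of the 6 kept genes 3 did. The others had other orders, such as Bfsp2. 11 rod genes summed to 1374, 11491 and 10022 ppm in sham and 588, 622 and 2207 ppm in OHT. Astrocyte genes summed to 37.0, 701 and 1229 ppm in sham and to 65.9, 36.7 and 129 ppm in OHT. The part of lens, rod or astrocyte RNA in the crystallin levels was not tested.

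**Figure D2:**
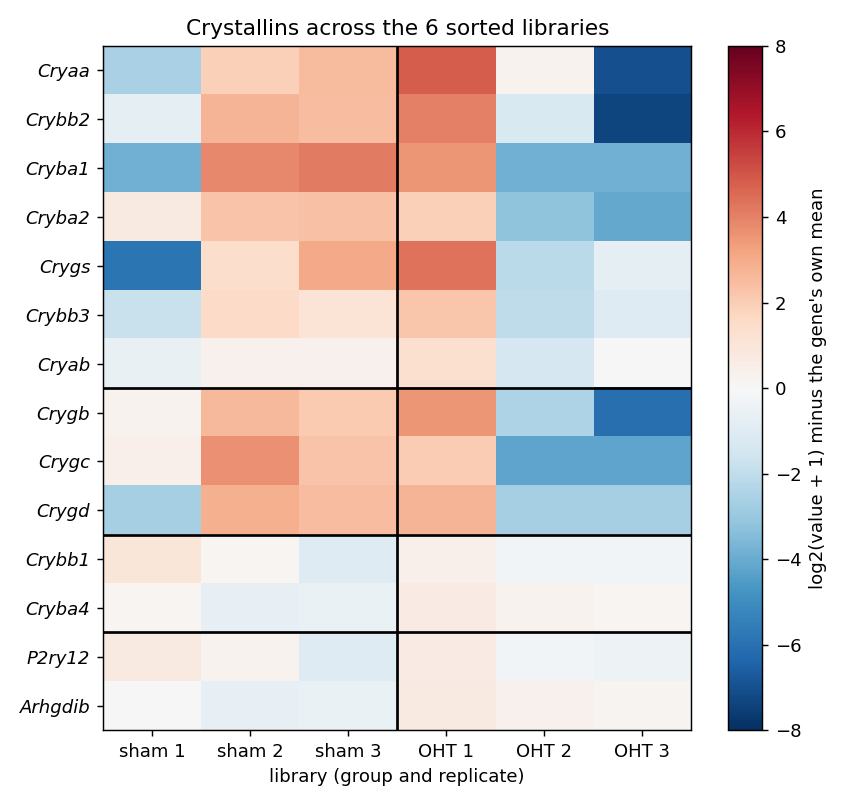
Each row is a gene and each column a sorted library; colour gives log2(value + 1) minus the mean of the gene over the 6 libraries. The 7 crystallins of the upper block and the gamma crystallins below them are above their mean in sham replicates 2 and 3 and OHT replicate 1, while Crybb1 and Cryba4, with P2ry12 and Arhgdib under them, have other orders and a smaller range of colours than the lens genes.

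The genes most like these members in pattern were partly other lens genes. For Cryba1 they were Eya2, an eye development gene, Coch, an extracellular matrix gene, and Crygd, at 0.70, 1.00 and 1.18 log2 units. For Cryba2 they were Lrrc23, Crygc and Rflna, at 0.70, 0.71 and 0.74. For Crybb2 they were Nell2, Crygb and Acta2, the smooth muscle actin gene, at 0.50, 0.89 and 0.99, and Nell2 (1.10), Acta2 (1.39) and Mid2 (1.53) were the nearest to Cryaa. Crybb3 was nearest to Aqp1, a water channel gene, Abi3bp and Sema6d, at 0.32, 0.49 and 0.51, and Crygs to Nat8, Gfpt2 and Ggt1, at 1.09, 1.11 and 1.14. Cryab was nearest to Adal, Mt3, a metallothionein gene, and Bbs4, at 0.13, 0.19 and 0.21. These distances rest on 6 libraries and are a description.

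Against the whole table, the crystallins did not stand out between OHT and sham. Limma called 0 of the 9 members and 0 of all 14403 genes, that is 0%, at an adjusted p under 0.05, and no member had an unadjusted p under 0.05, against 1680 of all genes. edgeR also called 0 members and 0% of genes, and DESeq2 called 0 members and 1.74% of genes. No member had OHT values all above or all below sham, against 9.26% and 9.18% of all genes. In limma the difference was negative for 7 members and positive for 2, with a median of -0.57 against -0.12 for all genes. In edgeR Cryaa, Cryab and Crybb2 were positive instead (1.49, 0.14 and 0.27). Adjusted p-values of the members in limma lay between 0.447 and 0.966. None of these results shows that the levels were equal, as the intervals above are wide.

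**Figure D3:**
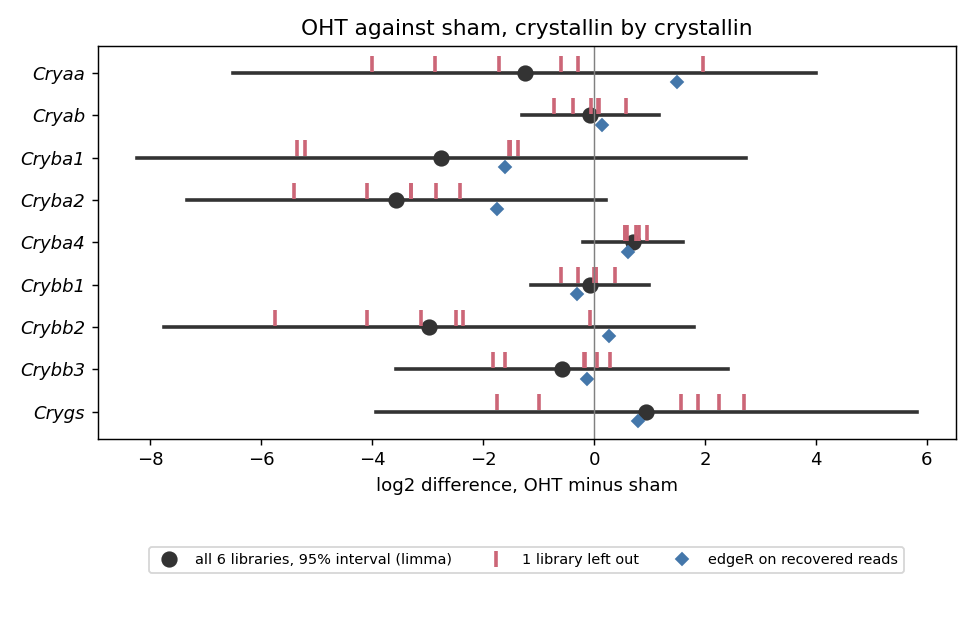
Log2 difference of OHT from sham for each crystallin: points and lines give the limma estimate and its 95% interval with all 6 libraries, ticks the estimate with 1 library left out, and diamonds the edgeR estimate. All intervals include 0; Cryba4 stays above 0 and Cryba1 and Cryba2 stay below 0 with each library left out, whereas Cryaa, Cryab, Crybb1, Crybb3 and Crygs change sign.

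Single libraries set the sign or the size of most differences. Without OHT replicate 3, which had no reads of Cryaa and Crybb2, the difference of Cryaa went from -1.25 to 1.96 and that of Crybb2 from -2.98 to -0.065. Without OHT replicate 1 they were -3.99 and -5.74. Crygs went from 0.94 to -1.76 without sham replicate 1 and to -0.99 without OHT replicate 1. Cryab was at -0.73 without OHT replicate 1 and at 0.58 without OHT replicate 2.

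The make-up of the crystallin reads differed between the preparations. Summed over the members, they took 292, 378 and 330.2 ppm in sham, 472, 156 and 279.9 ppm in OHT, and 1460, 1023 and 1189 ppm in the cultures. Cryab held 42.2% to 66.1% of these reads in sham, 41.9% to 65.2% in OHT and 99.2% to 99.6% in the cultures. Crybb1 held 9.13% to 43.7% in sham and 10.9% to 31.9% in OHT, and it had more reads than Cryab in sham replicate 1. The 6 lens genes together reached their largest share in OHT replicate 1, where Cryaa alone held 12.3%.

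**Figure D4:**
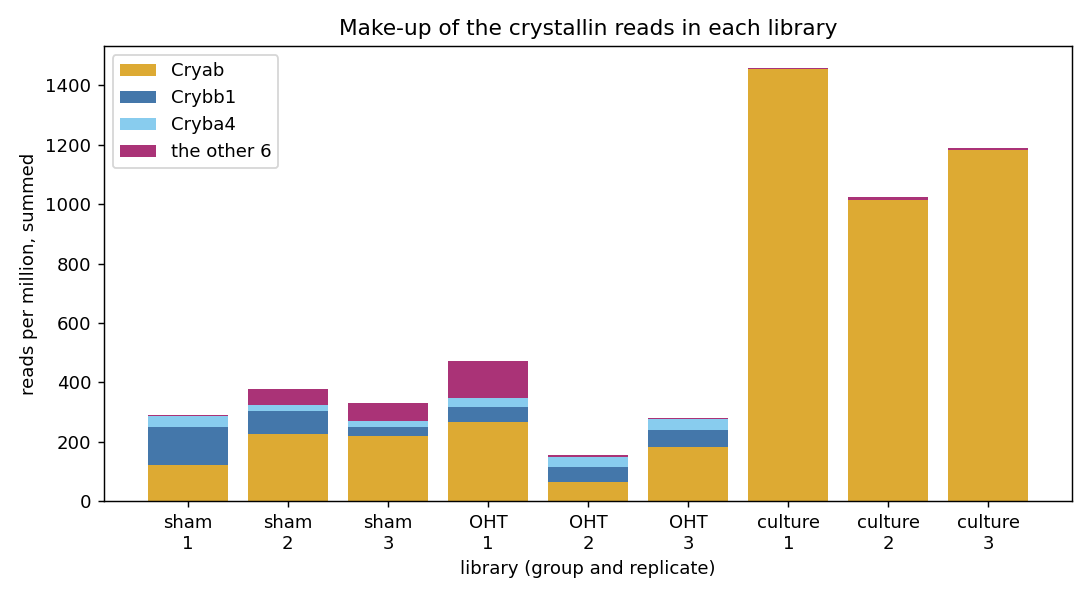
Bars give the summed level of the crystallin genes in ppm in each library, split into Cryab, Crybb1, Cryba4 and the other 6. Cryab makes up nearly the whole bar in the cultures (1023 to 1460 ppm in sum), and Crybb1 and Cryba4 are visible in all 6 sorted libraries, whose sums lie between 156 and 472 ppm.

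Per kilobase of exon in GENCODE release M21, the order of the genes in the sorted cells was Cryab, Crybb1 and Cryba4, with the other members below. In sham these levels were 128 ± 39.0 ppm per kilobase for Cryab, 78.6 ± 49.5 for Crybb1 and 31.3 ± 11.0 for Cryba4 (SD, n = 3). Neighbours in this order overlapped: Crybb1 was above Cryab in sham replicate 1 (129.6 against 83.3), and in OHT replicate 2 (50.5 against 44.1), and in sham the ranges of Crybb1 and Cryba4 overlapped as well. In OHT the levels were 116 ± 68.1, 53.8 ± 4.30 and 41.5 ± 4.23. In the cultures Cryab was at 823 ± 150.1 and was followed by Cryaa at 1.68 ± 0.874 and Crybb3 at 0.844 ± 0.0882. Lengths come from an annotation that may differ from the one the authors used.

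Across the 3 groups the lens members had no common order. Crybb3 was at 1.76, 1.97 and 2.18 ppm in the cultures, inside the range of the sorted libraries (0.317 to 4.43). Cryaa was at 3.03, 5.49 and 1.94 ppm and Crygs at 0.181, 0.291 and 0.612 ppm in the cultures, which also lay within the sorted ranges. Crybb2 was at 0, 0.264 and 0.117 ppm, and Cryba1 had 1 read in all 3 cultures against 600 in the sorted libraries, a pooled ratio of 480.2 (exact 95% interval 85.9 to 18997, counting error only). These 600 reads came from sham replicates 2 and 3 and OHT replicate 1 (217, 263 and 120). The other sorted libraries had no read of Cryba1, so the cultures were not below all of them. For the sham and OHT groups the ranges of all 9 members overlapped.

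The relatives of the members were read from lists. Small heat shock proteins, the family of the alpha crystallins, had 6 genes kept, of which limma called 0 in either direction. Their median log2 difference was -1.29, against -0.12 for all genes, with 5 negative and 1 positive. Hspb1, which is induced by heat and injury, was at 4296, 3276 and 4024 in sham and 3927, 3584 and 369 in OHT. Its difference was -1.15 with an SE of 0.74 and an adjusted p of 0.537 in limma. OHT replicate 3 alone was low. Hspb6, a partner of other small heat shock proteins in muscle, was at 709, 1603 and 2790.1 in sham and 257, 743 and 828 in OHT. Its difference was -1.44 with an SE of 0.62 and an adjusted p of 0.409 in limma. In the cultures 3 of the 6 genes were above all sorted libraries, against 33.4% of all genes: Hspb2, Hspb6 (87.3 to 112 ppm against 3.91 to 65.6) and Hspb8 (78.5 to 139 ppm against 0.168 to 16.6). Hspb3 was below all sorted libraries, where 18.2% of all genes were. Hspb2, Hspb8 and Hspb3 were named after their values were seen.

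The list of the heat shock response held 15 genes, all kept, and limma called 0 of them. The difference was positive for 13 and negative for 2, with a median of 0.56 against -0.12 for all genes. The list summed to 13696, 10582.5 and 10663 ppm in sham and 8801, 11612.5 and 29213 ppm in OHT. OHT replicate 3 was thus the highest of the sorted libraries and OHT replicate 1 the lowest. Hspa8, the constitutive chaperone, was at 178844, 161793 and 161539 in sham and 201504, 184672 and 428909 in OHT. Its difference was 0.59 with an SE of 0.45 and an adjusted p of 0.595 in limma. Hspa8 and Bag3 were the 2 of 15 genes with all OHT libraries above sham in normalised counts, against 9.26% of all genes. Bag3 was named after its values were seen. In ppm neither gene kept this order, as OHT replicate 1 was below all sham libraries. It was at 3062 against 3796 to 4577 for Hspa8 and at 66.8 against 71.7 to 94.4 for Bag3. Hspa1a, the chief inducible chaperone, was at 1118 to 2436 ppm in the sorted libraries and at 3.67 to 5.32 ppm in the cultures. Hspa1b and Dnajb1, also named after their values were seen, were below all sorted libraries in the cultures too, and Serpinh1, a collagen chaperone, was above, that is 3 of 15 below and 1 above against 18.2% and 33.4% of all genes. Cryab and Hspa1a thus differed between the preparations in opposite directions.

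Of 10 transcription factors of lens development, 8 were kept and limma called 0. Maf, a factor that binds the core marked in the promoters and is also made by macrophages, was at 2709, 1976 and 2436 in sham and 8952, 2834 and 5644 in OHT. All OHT libraries were above sham in normalised counts. The difference was 1.15 with an SE of 0.43 and an adjusted p of 0.365 in limma. In ppm the groups overlapped, with 69.3, 50.2 and 57.2 in sham and 136, 64.2 and 149 in OHT. Pax6, which directs eye development and is made by amacrine cells in the adult retina, was at 1145, 3046 and 1319 in sham and 1173, 492 and 1082 in OHT. Its difference was -0.96 with an SE of 0.52 and an adjusted p of 0.485 in limma. Sox2, named after its values were seen, was below sham in all OHT libraries in normalised counts. The highest OHT library was at 319.7 and the lowest sham library at 321.3. In ppm OHT replicate 3 (8.46) was above sham replicates 1 and 3 (8.22 and 8.03). In normalised counts 9.26% of all genes had all OHT libraries above sham and 9.18% had them below. In the cultures 6 of the 8 were below all sorted libraries, against 18.2% of all genes, with Maf at 1.22 to 2.22 ppm against 50.2 to 149 ppm. Sox1 and Pitx3 are not listed.

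Enzymes that serve as lens crystallins in other animals were the last list, with 5 genes kept and 0 called. Crym, which binds thyroid hormone, was at 3394, 6829 and 4005 in sham and 3242, 2761 and 5897 in OHT. Its difference was -0.27 with an SE of 0.41 and an adjusted p of 0.783 in limma. Cryl1, a sugar dehydrogenase, was at 3072, 2809.6 and 1993 in sham and 5063, 3889.5 and 3106 in OHT. Its difference was 0.61 with an SE of 0.35 and an adjusted p of 0.505 in limma. In these normalised counts all OHT libraries of Cryl1 were above sham. In ppm OHT replicate 1 (76.9) was below sham replicate 1 (78.6). Crym and Cryl1 were below all sorted libraries in the cultures, 2 of 5 genes against 18.2% of all. Crym was at 17.7 to 21.1 ppm and Cryl1 at 3.86 to 4.72 ppm. Of the 10 other genes of the beta-gamma family, 7 were kept and limma called 0, with a median log2 difference of 0.42.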

How the data were processed

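RNA of 6 libraries of sorted cells and 3 of cultures was amplified from low input with a template-switching kit and sequenced as 150 bp pairs, per the labels' protocols. Per the submitters' processing notes, tools were bcl2fastq 2.20, Trim Galore 0.6.6, FastQC 0.11.9 and STAR 2.7.1a with build mm39; the sources used here do not name the counter, the annotation or the tool for normalization. The deposited signal is a read count per gene divided by 1 factor per library and not by length. Dividing each column by its smallest step gave whole reads for 100% of values (tolerance 0.05 reads), which set the depth; in culture replicate 3 the step is too close to 1 for an independent check. All columns belonged to a sample. The labels do not say whether libraries came from separate animals beyond the pooling, so p-values measure the spread between these libraries.

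OHT was compared with sham by limma 3.58.1 (R 4.3.3, eBayes with trend) on log2(value + 1). The fit covered 14403 genes whose mean over the 6 libraries reached 10, with Benjamini-Hochberg adjustment over all of them. The added 1 shrinks differences of low genes, while 1 library without reads can enlarge them. For Crybb2 the difference was -2.98 with all libraries and -0.065 without OHT replicate 3. Recovered reads were tested with edgeR 4.0.16 (quasi-likelihood) and DESeq2 1.42.0. Levels across the tables are ppm without a test. An exact permutation test of 3 against 3 cannot go below 0.1. The members, lists and rule for named genes were chosen with earlier results of these data known: all members, the 2 genes of the highest mean in a list without a call, and the 3 nearest patterns for each member. 1 gene of a marker list is not reported here. Gene lengths are GENCODE M21 exon unions, and promoters are RefSeq's on GRCm38.p6; both differ in build from the authors'. Figures used matplotlib 3.10.9.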

Additional observations from a re-analysis of the deposited data

How the results depend on the processing

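None of 143 alternative fits of single members passed the threshold (smallest adjusted p 0.397 over limma, edgeR and DESeq2), and 124 kept the sign. Cryaa, Cryab and Crybb2 turned positive in edgeR (1.49, 0.14 and 0.27) and DESeq2 (1.64, 0.24 and 0.41), and Crybb3 after quantile normalization (0.083). Leaving out 1 library gave -3.99 to 1.96 for Cryaa, -0.73 to 0.58 for Cryab, -0.59 to 0.38 for Crybb1, -1.82 to 0.29 for Crybb3 and -1.76 to 2.71 for Crygs. Cryba2 was not tested at a mean of at least 100. The number of genes called was 250 in DESeq2 (54 higher, 196 lower, 510 without an adjusted p), 2 with the replicate block and between 0 and 17 with 1 library left out: 12 without sham replicate 1, all lower, and 17 without sham replicate 3, all higher. In all other alternatives it was 0. Same-numbered sham and OHT libraries did not deviate together (Pearson r 0.06, -0.05 and -0.06 across 11532 genes, which are not independent), and not every library correlated best with its own number. No member was among the genes called in any alternative. The cause of the differing numbers of called genes was not tested. The log2 ratio of summed crystallin levels in culture over sorted libraries was 1.94 and lay between 1.63 and 2.09 under 2 other scalings and with 1 library left out. At these depths 1 read is worth 0.0130 to 0.0264 ppm, and a count of 0 allows a level of up to 0.0391 to 0.0793 ppm.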
